A study of Mus musculus with 16 samples.

Results

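Sulindac-induced lesions of the proximal colon were compared between mice without epithelial Mcc and their wild-type siblings. The comparison rests on 7 of the 16 arrays of the study, the 4 knockout (KO) and 3 wild-type (WT) arrays of sulindac-fed mice, and the difference is given as KO minus WT. All animals were male, on a C57BL/6J background, and homozygous for a loxP-flanked Mcc allele (Mccf/f). KO mice also carried Villin-cre, from strain B6.SJL-Tg(vil-cre)997Gum/J, in which the villin promoter drives Cre in intestinal epithelium, so that other cells of the mucosa kept Mcc. Mice were 6 weeks old when they started on feed that held 320 ppm of the anti-inflammatory cyclooxygenase inhibitor sulindac, and ate it for 10 weeks. The mucosal layer was then taken from inflamed areas only, here called lesions. Mucosa from the corresponding normal region of mice on control feed, 6 WT and 3 KO arrays, served as background. No array came from uninflamed mucosa of sulindac-fed mice, and nothing in the labels says how many animals the arrays represent.

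Mcc (mutated in colorectal cancers) encodes a coiled-coil protein that has been placed at epithelial cell junctions and in Wnt and NF-kappa B signalling. An ulcerated colon draws in neutrophils, which leave the blood after G-CSF and CXC chemokine signals and die quickly in tissue. The epithelium at the wound edge flattens, migrates and changes its junctions and keratins, while proteases of the plasminogen system clear fibrin. Plasma cells of the lamina propria, each of which expresses 1 combination of heavy-chain and light-chain variable genes, supply antibody to the lumen.

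Values are log2 expression from Affymetrix arrays, and a difference of 1 is a 2-fold change. Array medians lay between 4.90 and 5.05, which serves as a rough floor, since RMA values carry no detection call. Epithelial identity of the samples was checked on Epcam, which stood between 12.1 and 12.2 in all 7 lesion arrays. KO lesion 1 stood apart from the other lesions, with correlations across genes of 0.973 to 0.988 against 0.986 to 0.995 among the other 6. KO lesion 3 correlated best with WT lesion 3, at 0.995. In bulk mucosa, fewer cells of a type and less RNA per cell cannot be told apart.

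Of 30704 genes tested with limma, 94 differed between KO and WT lesions at a Benjamini-Hochberg adjusted p under 0.05, which is 0.306% of the genes. KO lesions had the higher level at 76 genes (0.248%) and the lower level at 18 (0.0586%). At least 2-fold differences were found at 19 of the rises and 5 of the falls. The rises held 4 of 20 neutrophil markers, Arg1, Il1f9, Jun, Krt13, Vim, and Plat, the gene for tissue-type plasminogen activator. The falls held Mcc, 3 antibody variable genes, 2 subunits of the respiratory chain, and Psmb10 of the immunoproteasome. KO and WT lesion arrays did not overlap at 93 of the 94 genes, Pfkfb3 being the exception. Over all genes, 60% had a difference above 0, 5.47% lay higher and 3.91% lower in KO lesions without overlap, and the median difference was 0.04. Counts of list members below are to be read against these shares.

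These calls depend on how the spread is estimated. The test pools the spread over all 16 arrays, and a fit on the 7 lesion arrays alone called only Plat. The replicate numbers were taken to pair the lesions. With the number of the lesion arrays as a block over 16 arrays, 323 genes (1.05%) passed, including 88 of the 94. The block was chosen from these same values, in which same-numbered lesions deviated together. Counts with the block, here and below, are therefore not independent support for a difference. Control arrays all shared 1 block level with the lesions numbered 1. KO lesion 4 had a level to itself, so differences with the block are those between lesions 1 to 3 of each genotype. The same block on the 7 lesion arrays called 0 genes, with 5483 at an unadjusted limma p under 0.05, and same-numbered control arrays did not deviate together, so counts with the block below are those over 16 arrays. Without KO lesion 3, 1695 genes passed, 686 higher and 1009 lower in KO lesions, so that the falls then outnumbered the rises, while without KO lesion 1, 2 or 4 the count was 19, 24 or 52. Leaving out WT lesion 1, 2 or 3 left 4, 7 or 7 genes, and leaving out any single control array left 30 to 50. Plat, Mcc, Tmem95 and Gm9733 stayed called whichever single array was left out. Tmem95 differed by 0.72 and Gm9733 by 1.05 (limma adjusted p = 0.00424 and 0.00747). All 94 genes kept their direction in every alternative in which they were tested. Leaving out arrays could not have reversed the 93 without overlap, and control arrays do not enter the lesion difference. KO lesion 3 was the lowest of the KO lesions at 55 of the 76 rises, and KO lesion 1 was the lowest at 15 of the 18 falls. Among the rises, the median SD was 0.30 between KO lesions and 0.14 between WT lesions.

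Mcc itself checked the labels. In WT lesions Mcc stood at 7.40, 7.09 and 7.18, and in KO lesions at 6.39, 6.42, 6.47 and 6.45. All KO lesion arrays lay below all WT lesion arrays and close to each other. The difference was -0.79 (SE 0.09, limma adjusted p = 0.0032), and on the control diet it was -0.60 (adjusted p = 0.083). Mcc was not listed near the array floor in KO mucosa, which still holds cells without Cre, and where the probes lie relative to the deleted exons is not given in the sources used here.

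**Figure D1:**
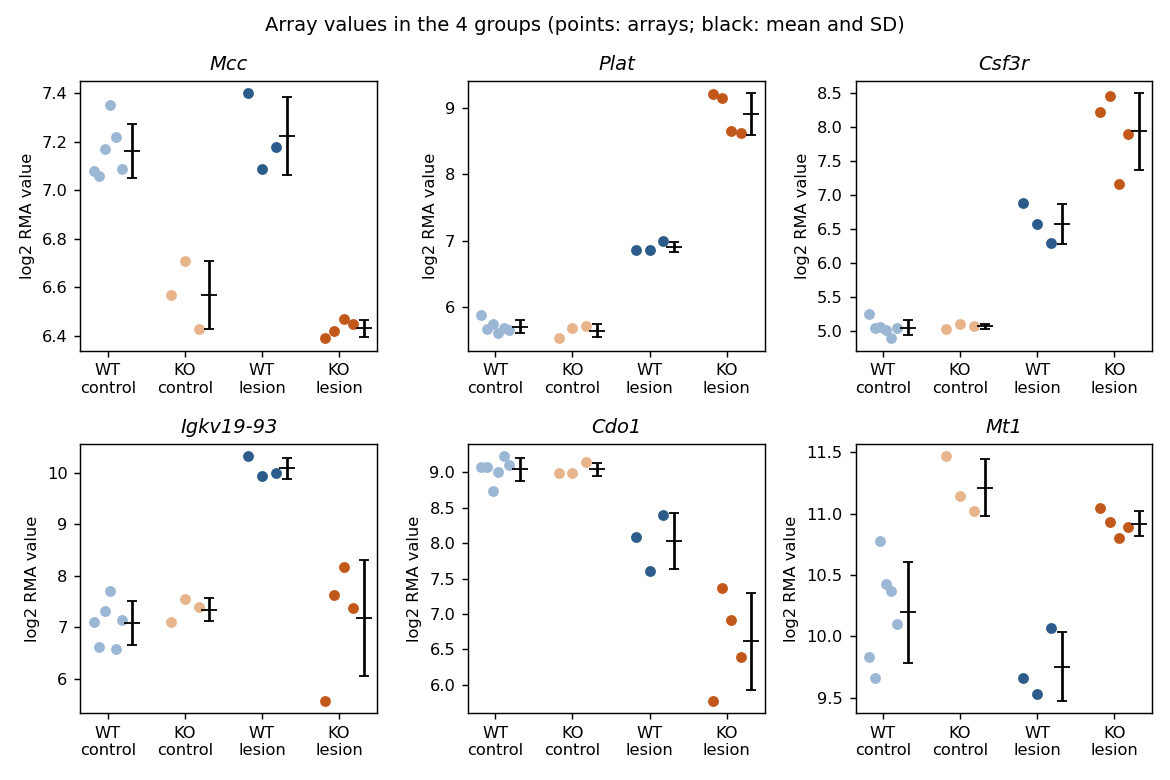
Log2 values of 6 genes on every array, by genotype and diet, with the mean and SD of each group in black. Mcc was lower in both KO groups and Mt1 was higher in both, whereas Plat and Csf3r were higher, and Igkv19-93 and Cdo1 lower, in KO lesions with overlapping values on the control diet.

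Plat had the lowest p of all genes. Its product, tissue-type plasminogen activator, cuts plasminogen to plasmin, which dissolves fibrin. Plat read 6.87, 6.86 and 7.0 in WT lesions, and 9.21, 9.15, 8.66 and 8.62 in KO lesions. The gap between the groups was larger than the range within either. The difference was 2.0 (SE 0.13, limma adjusted p = 2.6e-06), a 4.0-fold higher level in KO lesions. On the control diet both genotypes lay between 5.53 and 5.89, so that lesions of both genotypes were above control mucosa.

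Other members of the plasminogen and coagulation list fell on both sides. Of 20 measured members, 2 rose (Plat and F3) and 1 fell (Serpina3n), and the median difference was 0.25. Higher without overlap were 9 members, against 5.47% of all genes. With the replicate block, 5 rose and none fell. Plau, the urokinase-type activator, differed by 0.40 (adjusted p = 0.55) with overlapping arrays, and Plaur, its receptor, by 0.94 (adjusted p = 0.155). Serpinb2, an inhibitor of both activators, differed by 1.43 (adjusted p = 0.0564). Serpina3n, a secreted serine protease inhibitor, read 7.04, 6.75 and 6.67 in WT lesions against 5.53, 5.92, 6.30 and 5.89 in KO lesions. Its KO arrays all lay lower, by 0.91 in the mean (SE 0.18, limma adjusted p = 0.0457; 0.0605 with the replicate block).

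F3 encodes tissue factor, the membrane receptor that starts the clotting cascade. WT lesions read 10.49, 10.57 and 10.62, and KO lesions 11.92, 11.58, 11.37 and 11.27. The WT arrays were tightly grouped and every KO array was above them. The difference was 0.97 (SE 0.19, limma adjusted p = 0.0457). The promoter window of F3 is from RefSeq (GRCm38.p6, chr3:121723287-121723586, plus strand, 250 bases before the start and 50 after). It is shown with 2 matches to the AP-1 motif TGANTCA in capitals. Jun, an AP-1 subunit, rose in the same lesions, but whether AP-1 acts on F3 was not tested.
F3 promoter: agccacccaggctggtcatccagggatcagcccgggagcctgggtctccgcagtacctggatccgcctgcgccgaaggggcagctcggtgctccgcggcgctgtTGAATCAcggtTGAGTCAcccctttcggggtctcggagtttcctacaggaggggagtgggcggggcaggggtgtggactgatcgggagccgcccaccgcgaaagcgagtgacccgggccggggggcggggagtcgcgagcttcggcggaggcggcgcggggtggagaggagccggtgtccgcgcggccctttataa

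By a grouping made after their values were seen, 24 of the 76 rises code for receptors, enzymes or adaptors of leukocytes, with differences of 0.54 to 2.29, and 36 were put in no group. How many of all genes would fall in such a group was not counted, so the 24 are a description only. Retnlg, a resistin-like protein made by neutrophils, read 7.11, 7.08 and 6.33 in WT lesions and 8.55, 10.20, 7.64 and 10.11 in KO lesions. KO lesions 2 and 4 were far above the rest and KO lesion 3 was nearest to WT. The difference was 2.29 (SE 0.46, limma adjusted p = 0.0494). Mrgpra2a, a receptor of the Mas-related family, followed the same order, at 6.21, 5.87 and 5.85 in WT lesions and 7.72, 9.23, 6.76 and 8.99 in KO lesions.

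Receptors by which neutrophils are released and guided rose as well. Cxcr2, the receptor for CXC chemokines, read 6.99, 6.88 and 6.5 in WT lesions and 8.26, 9.42, 7.34 and 8.84 in KO lesions. Its difference was 1.68 (SE 0.32, limma adjusted p = 0.0445). Csf3r, the G-CSF receptor, read 6.88, 6.58 and 6.29 in WT lesions and 8.23, 8.46, 7.17 and 7.90 in KO lesions, a difference of 1.36 (SE 0.22, adjusted p = 0.0251). At both genes all KO arrays lay above all WT arrays, again with KO lesion 3 lowest. The Csf3r window (RefSeq, GRCm38.p6, chr4:126024409-126024708, plus strand) is shown with its single match to the PU.1 motif GAGGAAG in capitals, PU.1 being a master regulator of myeloid genes.
Csf3r promoter: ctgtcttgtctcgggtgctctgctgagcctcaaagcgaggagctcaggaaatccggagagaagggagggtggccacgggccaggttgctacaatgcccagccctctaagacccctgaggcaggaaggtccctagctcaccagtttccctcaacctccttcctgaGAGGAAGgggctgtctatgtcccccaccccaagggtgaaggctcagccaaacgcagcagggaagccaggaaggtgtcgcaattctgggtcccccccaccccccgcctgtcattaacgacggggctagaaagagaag

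Trem1, which amplifies inflammatory signals in neutrophils and monocytes, rose by 1.71 (limma adjusted p = 0.0449), from 6.37, 6.05 and 5.93 in WT lesions to 7.69, 8.43, 6.60 and 8.57. Alox5ap, the partner of 5-lipoxygenase in leukotriene synthesis, rose by 1.46 (adjusted p = 0.0348). Lilr4b, an immunoglobulin-like receptor of myeloid cells, rose by 1.68 (adjusted p = 0.0451), and its near-identical neighbour Lilrb4a differed by 1.48 (adjusted p = 0.0565), so that signal may be shared between them. Of 5 Lilr, Pira and Pirb receptors all 5 lay higher in KO lesions and 2 rose, and of 15 Siglec and Cd300 receptors all 15 lay higher and 3 rose (Cd33, Siglece and Cd300lb). Both families were collected by symbol after values were seen.

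Among the Toll-like receptors, which sense microbial products, 2 of 12 rose, Tlr13 by 1.06 and Tlr8 by 0.83 (adjusted p = 0.0495 and 0.0466), and both sense RNA in endosomes. Tlr13 missed the threshold with the replicate block (adjusted p = 0.0505). Tlr3, which senses double-stranded RNA, differed by -0.63 (adjusted p = 0.0849), and with the replicate block it fell (adjusted p = 0.0312). Further rises in this group were Selplg, the selectin ligand on which leukocytes roll, at 0.66, Adam8 at 0.85, Ptafr, the receptor for platelet-activating factor, at 0.76, Slc11a1, a metal pump of phagosomes, at 0.54, and Mefv, which encodes pyrin, at 0.75.

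**Figure D2:**
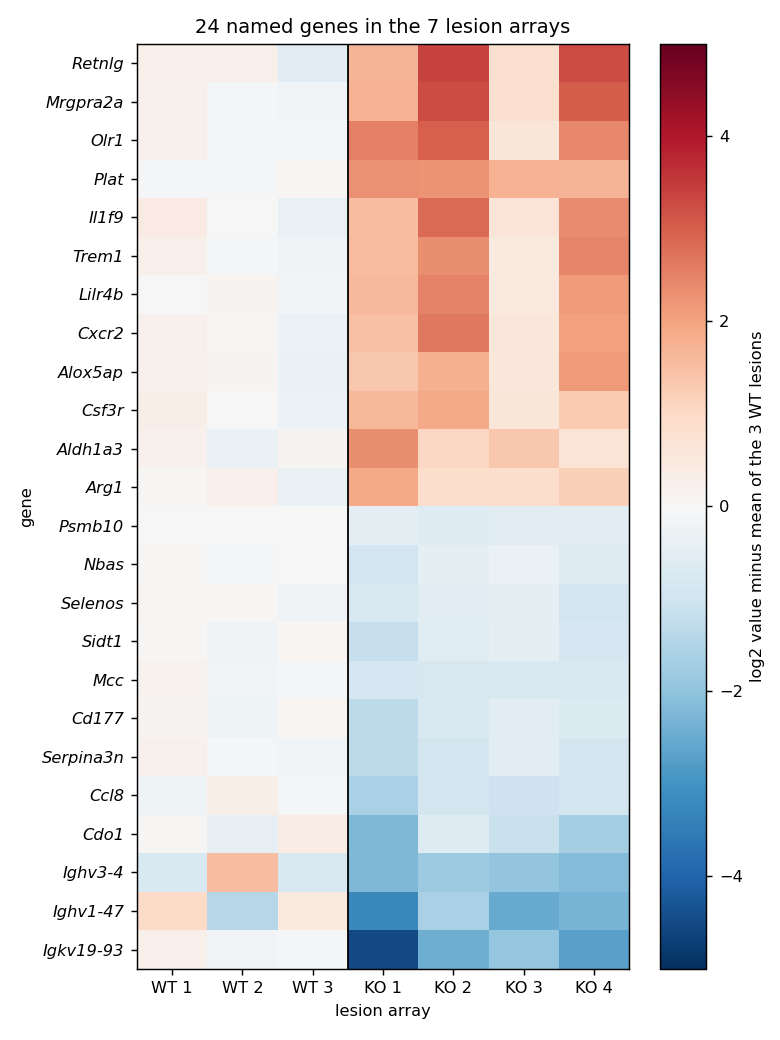
Log2 values of the 12 largest rises and 12 largest falls in the 7 lesion arrays, minus the mean of the 3 WT lesions (red higher, blue lower). KO lesion 3 was palest at myeloid genes such as Retnlg, Trem1 and Cxcr2, whereas Plat was clearly higher and Mcc lower in all 4 KO lesions.

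The neutrophil marker list gave the largest median of the 49 lists, 1.38 against 0.04 over all genes. Of 20 measured markers 19 lay above 0 and 4 rose (Retnlg, Trem1, Cxcr2 and Csf3r), and 13 rose with the replicate block. S100a9 and S100a8, the calprotectin subunits, differed by 1.77 and 1.55 (limma adjusted p = 0.0902 and 0.106; 0.0128 and 0.00167 with the replicate block). S100a9 read 10.36, 9.75 and 8.77 in WT lesions and 11.11, 12.14, 10.16 and 12.15 in KO lesions, with KO lesion 3 inside the WT range. Genes of granule proteins that are made mainly in bone marrow precursors stood near the array floor, as Elane and Mpo did at means of 5.05 and 5.23 in KO lesions, with differences of 0.10 and 0.05. On the control diet the list's median difference was -0.00. Averaged over the markers, the list read 6.73, 6.73 and 6.32 in WT lesions and 7.68, 8.27, 6.89 and 8.18 in KO lesions, so the groups did not overlap. No marker was called without KO lesion 1, when the median was 1.40, and 15 were called without KO lesion 3, when it was 1.79.

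Signals that attract neutrophils showed larger differences than the typical gene but few calls. In the list of neutrophil-attracting chemokines and receptors the median difference was 0.59, 11 of 12 members lay above 0, and the 2 that rose were the receptors Cxcr2 and Csf3r. Cxcl3, a ligand of Cxcr2, read 7.7 to 8.1 in WT lesions and differed by 1.12 (adjusted p = 0.248), with KO lesion 3 among the WT arrays. In the interleukin-1 family the median was 0.57 and 1 of 14 members rose. That gene was Il1f9, interleukin-36 gamma, a cytokine released by damaged epithelium and myeloid cells, at 6.86, 6.41 and 6.05 in WT lesions and 7.99, 9.27, 7.10 and 8.81 in KO lesions. Its difference was 1.85 (SE 0.37, limma adjusted p = 0.0471). Il1b, already at 10.9 to 11.4 in WT lesions, differed by 1.06 (adjusted p = 0.133). With the replicate block 4 members of the family and 5 of the chemokine list rose.

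Macrophage markers moved less. Of 21 measured members of the monocyte and macrophage list, 16 lay above 0 and the median was 0.34. The 1 that rose was Arg1, arginase, an enzyme of wound-healing myeloid cells that turns arginine into ornithine. Arg1 read 7.13, 7.33 and 6.73 in WT lesions and 8.94, 7.96, 7.93 and 8.26 in KO lesions, without overlap, and differed by 1.21 (SE 0.20, limma adjusted p = 0.0251). Lyz2, lysozyme, differed by 0.29 (adjusted p = 0.616), and Cd14 by 0.13 (adjusted p = 0.773). Olr1, a scavenger receptor for oxidised lipoproteins, read 6.94, 6.60 and 6.61 in WT lesions, and 9.22, 9.71, 7.33 and 9.10 in KO lesions. KO lesion 3 was again the lowest KO array at Olr1, and the difference was 2.13 (SE 0.38, limma adjusted p = 0.0348).

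Grhl3, Trim29, Krt13 and Aldh1a3 also rose, and they are set side by side here after their values were seen. Grhl3, a transcription factor of skin barrier formation and wound closure, read 6.68, 6.65 and 6.96 in WT lesions and 8.57, 7.82, 8.0 and 7.44 in KO lesions. Here KO lesion 1 was highest and KO lesion 4 lowest, an order different from that of the myeloid genes. The difference was 1.19 (SE 0.19, limma adjusted p = 0.025). Trim29, a tripartite-motif protein of stratified epithelia, rose by 1.14 (adjusted p = 0.028), and Krt13, a keratin of stratified mucosa, by 0.50 (adjusted p = 0.0459). Aldh1a3, which makes retinoic acid, read 7.35, 6.79 and 7.26 in WT lesions and 9.47, 8.17, 8.48 and 7.80 in KO lesions, in the same order as Grhl3. Its difference was 1.34 (SE 0.26, limma adjusted p = 0.0459).

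The list of wound-associated and fetal-like epithelial genes had no called member. Its median was 0.43, 16 of 18 members lay above 0, and with the replicate block 5 rose. Anxa1 differed by 0.65 and Cd44 by 0.58 (adjusted p = 0.129 and 0.217), and at both the KO arrays all lay higher. In the squamous list 16 of 17 members lay above 0, with a median of 0.09, and only Krt13 rose. With the replicate block 3 squamous genes rose, and without KO lesion 1 none did, with a median of 0.05. Of the basal keratins, Krt14 differed by 0.48 (adjusted p = 0.207), without overlap, and rose with the replicate block (0.61, adjusted p = 0.0144), while Krt5 stood at 6.2 to 6.5 in all lesion arrays and differed by 0.09 (adjusted p = 0.64). The pan-epithelial list had a median of 0.05 with no called member.

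Vim, Msn, Map4k4 and Svil, set side by side after their values were seen, code for proteins of the cytoskeleton and of cell movement. Vim, the intermediate filament of mesenchymal cells and leukocytes, read 9.46, 9.52 and 9.50 in WT lesions and 10.29, 10.34, 10.18 and 9.92 in KO lesions. Msn, moesin, which ties actin to the membrane, read 8.30, 8.46 and 8.49 against 9.17, 9.69, 9.07 and 9.29. At both genes the KO lesions formed a group of their own, although KO lesion 3 was the lowest of them at Msn and KO lesion 4 at Vim. The differences were 0.69 for Vim and 0.89 for Msn (limma adjusted p = 0.0408 and 0.0238). Map4k4, a kinase that controls focal adhesions, rose by 0.51 and Svil, an actin-binding protein, by 0.68. Fibroblast and collagen markers had a median of 0.04, with 0 of 21 called.

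Immediate early genes, which cells induce within minutes of a stimulus, were mostly higher. Of 21 members, 19 lay above 0, against 60% of all genes, and 10 lay higher without overlap, against 5.47%. The median was 0.33, and the 1 that rose was Jun. Jun read 9.51, 9.52 and 9.37 in WT lesions and 10.06, 10.04, 9.76 and 10.15 in KO lesions, a difference of 0.54 (SE 0.10, limma adjusted p = 0.0457). Dusp1, a phosphatase that shuts off MAP kinases, differed by 1.17 and Ier3 by 0.90 (adjusted p = 0.0569 and 0.0565). With the replicate block 5 members rose, and without KO lesion 1 the median was 0.20 and none rose. All 18 TNF and NF-kappa B feedback genes lay above 0, with a median of 0.29 and none called (1 with the replicate block). In the hypoxia and glycolysis list 21 of 25 lay above 0 and 1 rose, Pfkfb3, which drives glycolysis (0.78, adjusted p = 0.0466). The glycolytic enzymes Gapdh and Pgk1 differed by 0.06 and 0.03.

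**Figure D3:**
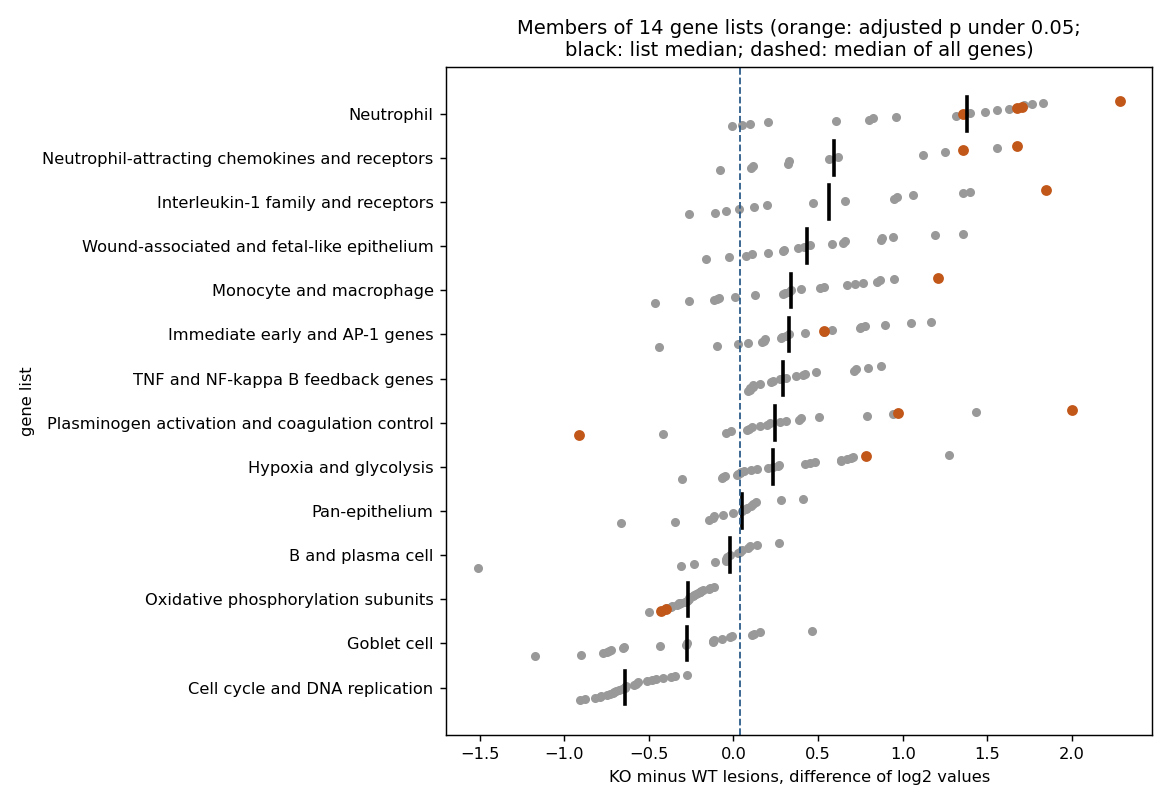
KO minus WT differences between lesions for each measured member of 14 gene lists, with called genes in orange, list medians in black and the median of all genes dashed. The neutrophil list has the highest median, 1.38, and the cell cycle list the lowest, -0.64, the latter without a called member.

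The falls included antibody genes. Igkv19-93, a kappa variable gene, read 10.32, 9.94 and 9.99 in WT lesions and 5.57, 7.63, 8.16 and 7.38 in KO lesions. WT lesions exceeded control mucosa, at 6.59 to 7.70, while KO lesion 1 lay below all controls and the other 3 near or above them. The difference was -2.90 (SE 0.43, limma adjusted p = 0.021). Ighv1-47 and Ighv3-4 fell by 2.42 and 2.06 (adjusted p = 0.0459 and 0.0408), Ighv1-47 with an adjusted p of 0.059 under the replicate block. Their WT lesions were uneven, as Ighv3-4 read 5.29, 7.60 and 5.27 against 3.79, 4.22, 4.10 and 3.89 in KO lesions. Without WT lesion 2 the fall of Ighv3-4 was 1.28 (adjusted p = 0.000212). Its KO values lay under the array medians, where RMA compresses differences.

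Across the variable genes, collected by symbol after values were seen, 112 of 117 heavy-chain genes lay below 0 with a median of -0.99, and 2 fell. Of 86 kappa genes 82 lay below 0 with a median of -0.85, and 1 fell. Averaged over the heavy-chain genes, WT lesions read 6.89, 7.47 and 6.74 and KO lesions 4.98, 6.63, 6.01 and 6.43. Without KO lesion 1 the medians were -0.66 and -0.50 and no heavy-chain gene was called. Variable genes resemble each other in sequence, so probes may share signal. Other markers of B and plasma cells had a median of -0.02, with 0 of 15 called. Among them Jchain, which joins IgA dimers, differed by -1.51 (adjusted p = 0.255) with all KO arrays lower, and Mzb1, a plasma cell chaperone, by -0.11 (adjusted p = 0.66).

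The falls Psmb10 and Tapbpl act in antigen processing and were set side by side after their values were seen. Psmb10, a catalytic subunit of the immunoproteasome, read 9.83, 9.79 and 9.83 in WT lesions and 9.31, 9.16, 9.25 and 9.27 in KO lesions. The arrays of each genotype were within a narrow band, and the bands were well separated. The difference was -0.57 (SE 0.09, limma adjusted p = 0.0269). Tapbpl, which edits peptides on MHC class I, fell by 0.49 (adjusted p = 0.0447). In the list of MHC class II presentation 0 of 11 members were called and the median was -0.13. Of 39 proteasome subunits, collected after values were seen, 36 lay below 0 with a median of -0.18, and Psmb10 was the 1 that fell. Ccl8, a chemokine for monocytes and T cells, read 5.44, 5.96 and 5.60 in WT lesions and 4.03, 4.74, 4.64 and 4.73 in KO lesions. It fell by 1.13 (SE 0.18, limma adjusted p = 0.025), and its KO arrays too lay under the array medians.

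The largest fall outside the antibody genes was that of Cdo1. This gene for cysteine dioxygenase, which starts the breakdown of cysteine to taurine, read 8.09, 7.61 and 8.40 in WT lesions and 5.77, 7.37, 6.92 and 6.39 in KO lesions. Control mucosa of both genotypes stood at a mean of 9.04, so lesions were lower in both and lowest in KO. The difference between lesions was -1.42 (SE 0.27, limma adjusted p = 0.0457). Cd177, known as a surface glycoprotein of neutrophils, went the other way from the neutrophil markers. It read 10.75, 10.42 and 10.71 in WT lesions and 9.30, 9.85, 10.06 and 9.95 in KO lesions, a difference of -0.84 (SE 0.16, limma adjusted p = 0.0457). In control mucosa Cd177 stood at a mean of 9.66 in WT and 9.87 in KO.

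Sidt1, a transporter of double-stranded RNA and cholesterol, fell by 0.77 (limma adjusted p = 0.0287). Nbas, a tether in transport from Golgi to endoplasmic reticulum, fell by 0.60 (adjusted p = 0.0459). Selenos, a selenoprotein in the removal of misfolded proteins, fell by 0.69 (adjusted p = 0.0471, and 0.073 with the replicate block). The list of the unfolded protein response had a median of -0.15, with 13 of 18 members below 0 and none called.

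Subunits of the respiratory chain lay lower throughout. All 28 measured subunits had differences below 0, against 40% of all genes, and 16 lay lower without overlap, against 3.91%. The median was -0.27, and 2 fell. Uqcrfs1, the Rieske protein of complex III, read 9.20, 9.21 and 9.0 in WT lesions and 8.62, 8.82, 8.70 and 8.70 in KO lesions. Ndufs3 of complex I read 8.09, 8.22 and 8.12 against 7.70, 7.70, 7.82 and 7.75. All 4 KO lesions took part at both genes, and the differences were -0.43 and -0.40 (limma adjusted p = 0.0363 and 0.0495). Under the replicate block Ndufs3 had an adjusted p of 0.0605. Samm50, which inserts proteins into the outer mitochondrial membrane, fell by 0.47 (adjusted p = 0.0459). Of 75 mitochondrial ribosomal proteins, collected after values were seen, 73 lay below 0 with a median of -0.28 and none called, and 27 were called without KO lesion 3.

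Goblet cell genes had a median of -0.27, with 17 of 21 below 0 and none called. Muc2, the main mucin of the gut, differed by -0.28 (limma adjusted p = 0.404). The median moved with single arrays, to -0.15 without KO lesion 1, -0.17 without KO lesion 4 and -0.42 without KO lesion 2. The replicate block, to which KO lesion 4 adds nothing, gave the same -0.17.

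Cell cycle and DNA replication genes all lay lower without a single call. The 25 measured members had differences below 0, with a median of -0.64, but none lay lower without overlap. Mki67, the proliferation marker, differed by -0.75 and Top2a, a topoisomerase of dividing cells, by -0.71 (limma adjusted p = 0.276 and 0.326). Averaged over the list, WT lesions read 8.19, 7.94 and 8.43 and KO lesions 7.08, 7.34, 8.29 and 7.54. KO lesion 3 stood within the WT range and the other 3 below it. Without KO lesion 3 the median was -0.89 and 12 members were called, and without KO lesion 1 it was -0.47 with none called.

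**Figure D4:**
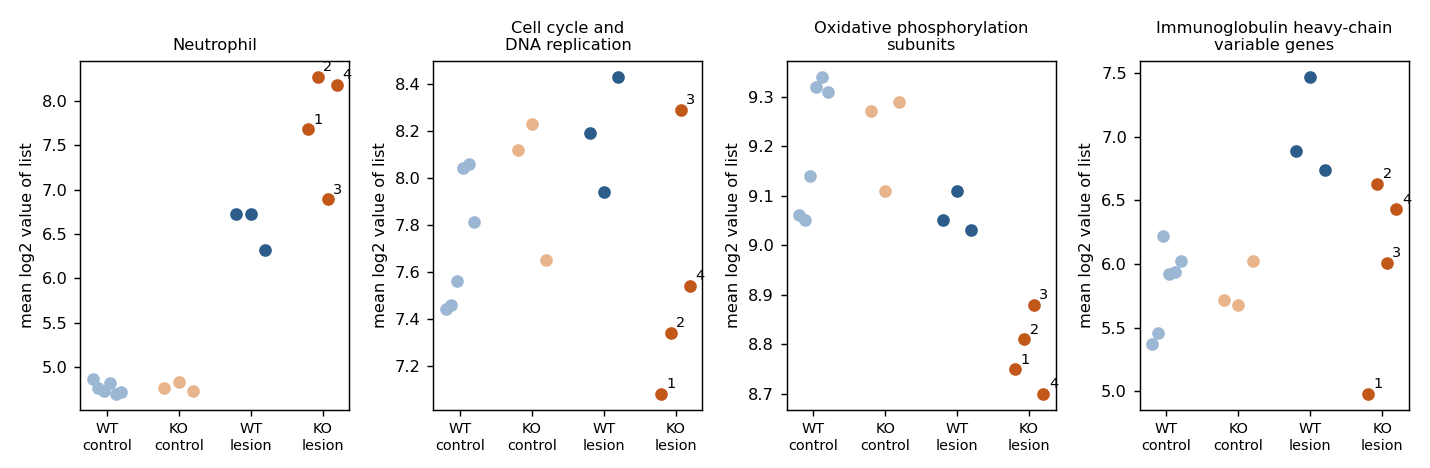
Mean log2 value of 4 gene lists on each array, by genotype and diet, with KO lesions numbered. KO lesion 3 lies nearest to WT lesions at the neutrophil, cell cycle and respiratory chain lists, and KO lesion 1 is lowest at the heavy-chain variable genes.

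The genotype difference in lesions was set beside that on the control diet, measured in the same fit. On the control diet limma called 0 of 30704 genes (0%), with 641 (2.09%) at an unadjusted p under 0.05, against 4127 (13.4%) in lesions. Both contrasts used the same spread, pooled over all arrays. The control share lay below the 0.05 that chance alone would give if that spread held. Among the rises, the median SD was 0.30 between KO lesions and 0.14 between WT lesions, and over all genes 0.13 and 0.11. Whether the pooled spread suits each group was not tested, so the shares are not directly comparable. Of the 76 rises 34 had a control-diet difference above 0, and of the 18 falls 7 had one below 0. Only Mcc and Mt1 exceeded 0.5 in size on the control diet, and the next was Igkv19-93 at 0.26. Description numbers in the labels, whose meaning is not given in the sources used here, fall in a lower and a higher series. All lesions and WT controls 1 to 3 are in the lower, and all KO controls and WT controls 4 to 6 in the higher, so that the series differs between the genotypes on the control diet but not between the lesions. With WT controls 4 to 6 only, the control-diet difference was -0.65 at Mcc and 0.91 at Mt1 (adjusted p = 0.631 and 0.858), with 0 genes called.

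**Figure D5:**
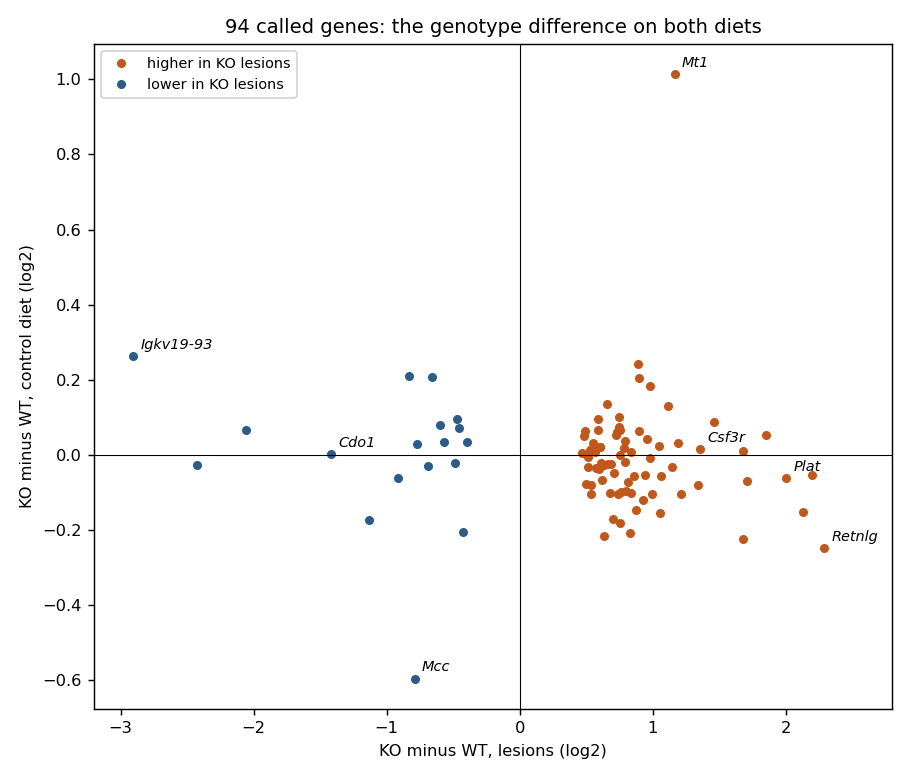
KO minus WT difference of the 94 called genes in lesions (horizontal axis) and on the control diet (vertical axis), both in log2 units. Mt1 and Mcc are the only called genes more than 0.5 from 0 on the control diet.

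Mt1 encodes metallothionein 1, a small cysteine-rich protein that binds zinc and copper. It read 9.66, 9.53 and 10.07 in WT lesions and 11.05, 10.93, 10.80 and 10.89 in KO lesions. The KO lesions were closely grouped and all above WT, with a difference of 1.16 (SE 0.21, limma adjusted p = 0.0408). On the control diet KO arrays read 11.47, 11.14 and 11.02 against 9.66 to 10.78 in WT, a difference of 1.01 that missed the threshold (adjusted p = 1), and the interaction was 0.15 (adjusted p = 0.814). Its neighbour Mt2 differed by 0.80 in lesions and 0.06 on the control diet (adjusted p = 0.444 and 1). The Mt1 window (RefSeq, GRCm38.p6, chr8:94178839-94179138, plus strand) is shown with 3 matches to the metal response element core TGCNCNC in capitals.
Mt1 promoter: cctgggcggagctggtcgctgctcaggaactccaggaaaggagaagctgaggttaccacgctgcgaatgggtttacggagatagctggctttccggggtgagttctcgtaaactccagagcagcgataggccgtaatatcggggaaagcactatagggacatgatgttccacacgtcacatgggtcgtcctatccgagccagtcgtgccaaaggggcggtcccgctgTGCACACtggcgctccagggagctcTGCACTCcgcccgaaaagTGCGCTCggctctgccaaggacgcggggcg

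Whether the genotype difference itself changed with diet was tested by the interaction term. Plat alone passed (1 of 30704 genes, 0.00326%), at 2.06 (SE 0.17, limma adjusted p = 0.000135), and 3422 genes (11.1%) had an unadjusted p under 0.05. For the other genes the difference between diets was therefore not shown. With WT controls 4 to 6 only, so that all controls are of the higher series and all lesions of the lower in both genotypes, Plat again was the 1 gene that passed (2.0, adjusted p = 0.00894). With the replicate block 29 genes passed, among them Csf3r, Aldh1a3, Grhl3 and Trim29, and without KO lesion 3 517 passed.

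Matches to the motifs were counted in the promoter windows of all genes that had one, 18267 of those tested. The share with the AP-1 motif was 7.5% of all windows, 9.8% of the 61 windows of genes that rose and 20.0% of the 10 of genes that fell. The PU.1 motif was in 13.3%, 14.8% and 10.0%, and the C/EBP motif TTGCNNAA, another myeloid factor's, in 10.3%, 13.1% and 10.0%. The metal response element core, with open positions, was in 53.2% of all windows. Both strands were searched, the motifs were chosen after values were seen, and a match is a run of letters, not a bound site.

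Several lists had medians near that of all genes. Markers of T and NK cells had a median of 0.03, endothelium 0.04, smooth muscle 0.06 and mast cells and eosinophils 0.07, with none called. Tight junction proteins and claudins had a median of 0.00 with 0 of 18 called, but their differences went both ways. Above 0 lay 9 and below 0 lay 9, with 3 higher and 2 lower without overlap, against 5.47% and 3.91% of all genes. An unadjusted limma p under 0.05 was found at 9 of the 18, against 13.4% of all genes. Tjp1, the scaffold ZO-1, differed by 0.36 (adjusted p = 0.127), with all KO arrays higher. Among the adherens junction and polarity partners of Mcc, 20 measured with Mcc, only Mcc was called, and Cdh1, E-cadherin, differed by 0.13 (adjusted p = 0.477). Prostanoid genes, which act in the pathway that sulindac inhibits, had a median of 0.05 with 0 of 22 called. Interferon-gamma and antiviral lists had medians of 0.10 and -0.13 and no called member, the latter between -0.25 and 0.07 when single lesion arrays were left out.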

How the data were processed

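Total RNA from the colon mucosa was profiled on 16 arrays, 1 per sample, with groups taken from the labels. Log2 expression values were deposited, made by the authors with RMA in Affymetrix Power Tools 1.16.1, per the submitters' processing notes. RMA corrects background, normalises quantiles and summarises probes, and it compresses differences near background. The number of arrays limits the precision.

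The table held 72688 rows. The platform annotation listed 32750 of them, 31261 with 1 gene symbol and 1489 with several, which were left out, and 39938 were not listed. Symbols were updated through RefSeq (GRCm38.p6), and for 442 genes with several rows the row of highest mean was used, which gave 30704 genes. Limma 3.58.1 (R 4.3.3) fitted 4 group means over 16 arrays with empirical Bayes moderation, two-sided, with Benjamini-Hochberg adjustment over all genes. The fit was tested on simulated data. No 2 lesion arrays were duplicates. P-values measure the spread between these samples, which may be technical.

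Replicate numbers come from the titles. The labels do not say what a shared number means. Deviations of same-numbered KO and WT lesions from their group means correlated at 0.47, 0.30 and 0.54 over genes, so the numbers were taken to pair lesions. KO lesion 4 has no partner and adds nothing to differences with the block. On the control diet the correlations were -0.32, -0.34 and -0.24. The block was thus chosen from these same values, and calls made with it are not independent support for a difference.

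Genes were named by a rule: Mcc, the 12 largest rises and falls among called genes whose lesion arrays did not overlap (model names left out), called members or the 2 most abundant members of each of 49 lists, the first markers of each cell type list, and the 3 lowest p-values on the control diet and in the interaction. Members and lists were chosen with earlier results of these data known, and other genes were named after their values were seen. Alternatives changed the arrays in the fit, the block, moderation, weights, dim genes, row choice and scaling, and left out each array.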

Additional observations from a re-analysis of the deposited data

Results flagged for a closer look

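Plat had a genotype difference that itself differed between diets, by 2.06 on the log2 scale in the interaction term. Ccl8 in KO lesion 1, at 4.03, lay apart from the other 3 KO lesions at 4.64 to 4.74, and its gap was 0.856 of the range of the 4 arrays. The mean of the adherens junction and polarity list in KO lesion 1 was 8.63 against 8.47 to 8.48 in the others, a gap of 0.906 of the range. Outlying arrays were looked for at 42 values, in 2 groups for each, and 2 were flagged. Chance marks about 1 in 20 groups, so the 2 flags are no more than chance alone would mark.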

How the results depend on the processing

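Fewer lesion calls (94 with all arrays) came from the 7 sulindac arrays alone (1), those with the replicate block (0), array medians subtracted (29) and WT controls 4 to 6 only (6). More came with the replicate block over 16 arrays (323) and with array weights (7.1e+02, of which 448 higher and 265 lower). Trended and robust moderation gave 77, repeated quantile normalisation 88, leaving out dim genes 132 and averaging rows 94. Subtracting array medians moved the median of all genes from 0.04 to -0.00. Leaving out 1 array gave 4 to 1695. On the control diet 1 gene, Mcc, was called with array weights, after repeated quantile normalisation and without WT lesion 1, and 2 without KO control 3 (Bank1 and Ighm), for a range of 0 to 2 without 1 array. Interaction calls numbered 29 with the replicate block and 1 to 517 without 1 array. The causes were not tested.

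Of the 24 named genes, none reversed in any alternative. They were chosen for lesion arrays without overlap, so leaving out arrays could not have reversed them. The replicate block ended the calls of Ighv1-47, Selenos and Serpina3n and no other of the 24, and on the 7 arrays Mcc had a limma adjusted p of 0.205 and Plat 0.0436. With the block on 7 arrays Plat had 0.229. Among 252 list medians under 14 settings, 247 moved by less than 1 SD and 244 kept their sign. These settings are not all separate, since the replicate block and leaving out KO lesion 4 give the same medians. At 18 called genes the lower group lay under the array median, where RMA compresses differences.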
